A study of Mus musculus with 6 samples.

Results

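The 6 arrays of this study fall on 3 dates, and each date holds 1 array of either hairpin group, so that the 2 arrays of the first date could be set against the 4 of the later dates with the hairpin group held as a covariate. 4T1 is a mammary carcinoma line that arose spontaneously in a BALB/c mouse. Its cells carried a stably transfected hairpin under puromycin selection, either scrambled as the control (4T1-SC) or directed against Mmp3 (4T1-MMP3lo), and were grown in RPMI with serum. These are the study's names for the cells. The array titles read NC and Cl1, and here 4T1-SC stands for the arrays titled NC and the label 4T1-MMP3lo for those titled Cl1. The first date has 1 array of 4T1-SC and 1 of 4T1-MMP3lo, and the later dates, called the second and the third, have 2 of each. The titles carry the dates without saying whether they mark the culture, the harvest or the array run, and nothing says that the arrays came from separate cultures, so p-values measure only the spread between these arrays. Date, passage, medium and everything else that went with the first date cannot be told apart.

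As background, tumour cells in culture secrete proteases, growth factors and cytokines, and many of these genes are switched on by AP-1 and NF-κB, transcription factors that respond to stress and growth signals. Interferon-stimulated genes are switched on by interferon-activated transcription factors when cells sense nucleic acid or receive interferon, and encode antiviral enzymes, immune GTPases and parts of antigen presentation. Genes of amino acid uptake, serine and one-carbon metabolism are switched on by ATF4 when amino acids run short.

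The level of a gene is given here as a background-corrected, normalized log2 intensity, in the order of the first, the second and the third date. A difference is the first-date mean minus the later-date mean on that scale, so a negative value means a lower level on the first date. Mmp3, the target of the hairpin, read 11.52, 12.98 and 13.04 in 4T1-SC against 10.64, 13.40 and 13.33 on the arrays labelled 4T1-MMP3lo. On the later dates its level was thus not lower under the hairpin, and only on the first date did the labelled knockdown array lie below its control. Its difference over both groups was −2.11 (SE 0.27, adjusted p = 0.0142), so that Mmp3 was itself among the genes lower on the first date.

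The raw intensity of an array had a median of 96.6 to 112.6, and it detected 16722 to 17548 of its 45281 probes. The first-date 4T1-SC array had the lowest value of both, and its part in the results was not tested. The first-date 4T1-MMP3lo array had the highest number of detected probes. Of 8 genes listed as carcinoma markers of 4T1, 7 were detected on all 6 arrays (Krt7, Krt8, Krt18, Krt19, Cdh1, Elf3 and Cldn7) and the probe of Epcam on none. Of 23 leukocyte markers 13 were detected on no array, Ptprc, Itgam and Adgre1 among them, while Cd14 and S100a8 were detected on 6, Cd4 on 5 and Cd3e and Csf1r on 4. Of 11 fibroblast markers 6 were detected on none, Col1a1 among them, while Pdgfra was detected on 6 and Fbln1 on 4. Of 10 endothelial markers 5 were detected on none, Pecam1 among them, while Eng was detected on 6. By the number of genes over 2-fold apart, the first-date 4T1-SC array was closer to the first-date 4T1-MMP3lo array (3.32% of 10066 genes) than to the later arrays of its own group (15.1% and 10.0%). The first-date 4T1-MMP3lo array lay 2.97% and 2.42% from its own later arrays, which were themselves 0.159% apart, against 2.05% for the later 4T1-SC pair.

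Between the first and the later dates, 327 of the 10066 genes tested passed an adjusted p of 0.05 in limma with hairpin group as a covariate. They were 113 genes higher on the first date (1.12% of those tested) and 214 lower (2.13%). All of them moved the same way in both hairpin groups, but the test nearly fixes this. A gene that moves opposite ways gets a small difference and a wide spread in this fit. The second and the third date set against each other gave 0 such genes (0%) by limma in a fit with 3 dates, with 132 at an unadjusted p under 0.05. That contrast has 2 arrays a side, and its spread takes in any difference of the first-date effect between the groups. In the same fit the first date gave 19 genes against the second and 17 against the third, with 1888 and 1423 at an unadjusted p under 0.05. The 0 is thus not a like comparison with the 327. When arrays were only shifted to a common median, the split of the genes called over both groups was 56 higher and 185 lower. That scaling also moved the median of all genes in 4T1-SC from 0.02 to −0.15. Without the first-date array of 1 group, the difference over both groups is that of the other group alone, which is given below. Leaving out the second-date or the third-date array gave 105 or 19 genes in 4T1-SC and 27 or 44 in 4T1-MMP3lo.

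Within each hairpin group the first date rests on 1 array, and the spread comes from the later pairs of both groups. In 4T1-SC 802 genes were called lower (7.97%) and 646 higher (6.42%). In 4T1-MMP3lo 53 were called lower (0.527%) and 6 higher (0.0596%), and 37 genes were called in both, all in the same direction. Under the common median these splits became 1281 lower and 331 higher in 4T1-SC and 81 lower and 29 higher in 4T1-MMP3lo. The 2 sets of differences share no array, and across genes they correlated at r = 0.43 with 63.1% of genes on the same side of 0. Genes are not independent replicates and this is a description only. Leaving out the second-date or the third-date array of 4T1-SC gave 2220 or 3455 calls in 4T1-SC and 357 in 4T1-MMP3lo either way, and leaving out either later array of 4T1-MMP3lo gave 682 in 4T1-SC and 18 or 16 in 4T1-MMP3lo.

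Genes were called shifted alike when they passed the test over both groups and differed at least 2-fold the same way in each group. There were 83 such genes lower on the first date (0.825% of genes) and 24 higher (0.238%), and 8 of the 107 also passed the test of a difference between the groups. The lower genes differed by −5.37 to −1.01 in 4T1-SC (median −1.79) and by −4.50 to −1.01 in 4T1-MMP3lo (median −1.36), and the higher ones by 1.05 to 2.27 (median 1.58) and 1.03 to 2.06 (median 1.23). The difference of the date effect between the groups was tested on its own, as an interaction, and 92 genes passed (0.914%), 86 of them with the larger date difference in 4T1-SC. Of these, 55 differed at least 2-fold in 4T1-SC and by under 0.5 in 4T1-MMP3lo (0.546%), 44 of them lower on the first date (−4.72 to −1.57) and 11 higher (1.65 to 2.64). There were 2 with the reverse pattern (0.0199%), and 19 went opposite ways by at least 0.5 in each group (0.189%). Of the 55 genes 8 were not well above background on any 4T1-MMP3lo array, 7 of the lower and 1 of the higher ones. These passed the filter through 4T1-SC alone, their value in 4T1-MMP3lo is that of the background, and they are no measure of a difference between the groups. Without the second-date or the third-date array, the shifted-alike count was 90 or 19 for 4T1-SC and 27 or 44 for 4T1-MMP3lo, the interaction count 282 or 1133 and 34 or 33, and the count in 1 group only 172 or 656 and 21 or 20. On the authors' own normalized table, which has no background correction, 24 genes passed the interaction and 38 were shifted alike.

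**Figure D1:**
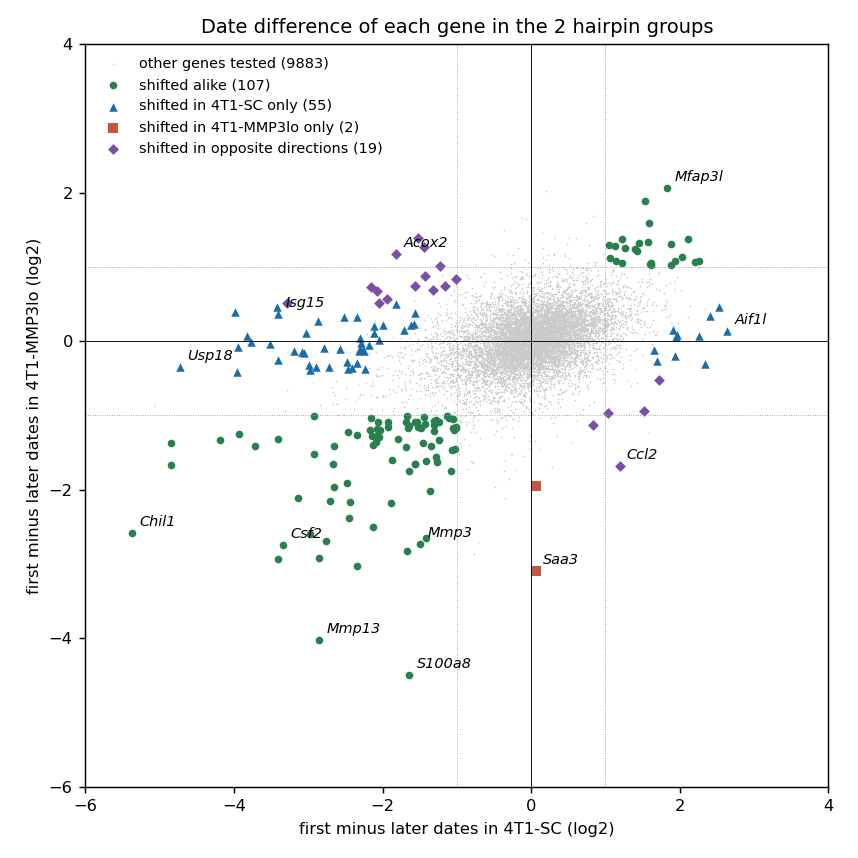
Each point is 1 of the 10066 genes tested, placed by its first-minus-later difference (log2) in 4T1-SC on the horizontal axis and in 4T1-MMP3lo on the vertical axis, with dotted lines at 2-fold. The 107 genes shifted alike lie in the lower left and upper right corners, the 55 shifted in 4T1-SC only along the horizontal axis, and 2 red squares (Saa3 and Slco4a1) along the vertical one.

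The matrix metalloproteinases and the plasminogen system, which together cleave the extracellular matrix and activate each other's proenzymes, included 7 genes lower on the first date. Of 28 genes listed for this system 19 were measured, with a median difference of −0.70 against 0.02 over all genes. Over both groups 7 were called lower (36.8%, where 2.13% of all genes were) and 0 higher (where 1.12% were). Mmp13, collagenase-3, was among the genes with the largest differences. It read 9.97, 12.78 and 12.86 in 4T1-SC against 8.74, 12.80 and 12.72 in 4T1-MMP3lo, a difference of −3.44 (SE 0.26, adjusted p = 0.00149), although its 3 probes ranged from −3.95 to −0.39. Both first-date arrays lay far below all 4 later ones, which were close to each other. Mmp10, stromelysin-2, read 10.34, 12.04 and 11.99 against 9.75, 12.56 and 12.60 in the same order, a difference of −2.25 (SE 0.26, adjusted p = 0.00968). Like Mmp3 and Mmp13 it had the larger difference in 4T1-MMP3lo, −2.83 against −1.68, but the interaction did not pass for any of the 3 (adjusted p = 0.133 for Mmp10, 0.115 for Mmp3 and 0.13 for Mmp13). Mmp9, gelatinase B, read 9.42, 11.76 and 11.96 in 4T1-SC against 8.42, 10.50 and 10.66 in 4T1-MMP3lo (difference −2.30, SE 0.17, adjusted p = 0.00149). The urokinase gene Plau (−1.42, adjusted p = 0.0211), its receptor Plaur (−0.84, adjusted p = 0.0416) and the tissue plasminogen activator Plat (−1.21, adjusted p = 0.0384) were lower as well. None of the measured inhibitors was called lower. Timp1 differed by −0.01 and Timp2 by −0.72 (adjusted p = 0.983 and 0.122), and Serpinb2, an inhibitor of urokinase, differed by 1.95 in 4T1-SC and was not well above background on any 4T1-MMP3lo array, so that its date difference was not measured there.

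Mmp3, Mmp10 and Mmp13 lie in 1 cluster on chromosome 9, and their promoters are shown because the 3 genes moved together. Each line gives the 250 bases before the start site from RefSeq (GRCm38.p6, plus strand), at chr9:7445572-7445821 for Mmp3, chr9:7502092-7502341 for Mmp10 and chr9:7272264-7272513 for Mmp13, with capitals marking the letters TGANTCA, the core to which AP-1 binds, which reads the same on both strands.
Mmp3: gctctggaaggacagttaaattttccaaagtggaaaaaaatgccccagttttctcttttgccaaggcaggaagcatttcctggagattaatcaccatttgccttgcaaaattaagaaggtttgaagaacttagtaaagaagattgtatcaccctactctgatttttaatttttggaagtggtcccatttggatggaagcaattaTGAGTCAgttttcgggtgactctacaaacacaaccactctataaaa
Mmp10: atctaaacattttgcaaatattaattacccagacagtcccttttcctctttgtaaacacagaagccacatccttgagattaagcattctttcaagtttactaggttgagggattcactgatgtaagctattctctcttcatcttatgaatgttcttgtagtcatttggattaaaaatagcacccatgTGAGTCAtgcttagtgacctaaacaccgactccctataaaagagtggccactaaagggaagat
Mmp13: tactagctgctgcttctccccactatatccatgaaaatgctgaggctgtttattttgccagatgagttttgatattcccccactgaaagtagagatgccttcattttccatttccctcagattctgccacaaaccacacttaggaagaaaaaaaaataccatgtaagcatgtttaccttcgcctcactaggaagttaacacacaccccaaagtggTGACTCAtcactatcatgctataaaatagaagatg
Each window held 1 match, starting 46, 63 and 35 bases before the start site in this order. Windows of the cytokine genes Csf2 and Il11, also shifted alike and lower, are not printed. That of Csf2 held 0 matches, and of the 2 windows of Il11, 1 held 1 match and the other 0. The letters were in 12 of the 75 windows that RefSeq lists for 58 of the 83 genes shifted alike and lower (16%), in 0 of 21 windows for 17 of the 24 shifted alike and higher, in 6 of 37 for the genes lower in 4T1-SC only (16.2%), in 3 of 15 for those higher in 4T1-SC only (20%), in 4.86% of the 10537 windows of all genes tested and in 6.75% of all 32851 windows. The sets of 4T1-SC only include 7 lower genes and 1 higher gene not well above background on any 4T1-MMP3lo array. A match describes the letters of the window and not binding, and several windows belong to 1 gene.

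Secreted growth factors of the myeloid lineage and other cytokines were also among the genes lower on the first date. Of 32 chemokines and cytokines listed for this comparison 22 were measured, and the median difference was −0.83. Of the 22, 8 were called lower (36.4%, where 2.13% of all genes were) and 0 higher (where 1.12% were). Csf2, which encodes GM-CSF, read 4.83, 8.27 and 8.07 in 4T1-SC against 4.62, 7.45 and 7.26 in 4T1-MMP3lo, a difference of −3.04 (SE 0.20, adjusted p = 0.00102). It was not well above background on the first-date 4T1-MMP3lo array, where the later arrays were at least 6.24-fold higher, a bound set against the lowest signal among detected probes. Csf3, which encodes G-CSF, read 8.86, 11.09 and 11.33 against 9.23, 12.39 and 12.14 (difference −2.69, SE 0.21, adjusted p = 0.00168), and its weaker probe differed by −0.83. Il11, a cytokine of the IL-6 family, read 5.20, 7.14 and 7.52 against 6.01, 8.59 and 8.44 (difference −2.32, SE 0.19, adjusted p = 0.0021). In all 3 genes the first-date arrays of both groups were below every later array. Smaller differences were called for the membrane-bound chemokine Cx3cl1 (−2.03), the neutrophil chemokine Cxcl1 (−1.12), Il1a (−1.22), Il23a (−1.10) and Lif (−0.96). Of 9 acute phase and complement genes measured, 2 were called lower, the siderophore-binding protein gene Lcn2 (10.90, 13.37 and 13.37 in 4T1-SC against 12.34, 14.24 and 14.25 in 4T1-MMP3lo, difference −2.19, SE 0.18, adjusted p = 0.00228) and the copper carrier gene Cp (−1.31, adjusted p = 0.0343). The probes of Cp ranged from −1.38 to −0.02. Nfkbia, the NF-κB inhibitor that NF-κB itself induces, was the 1 gene called of 20 NF-κB feedback genes and targets (−0.98, adjusted p = 0.0349). Its other probe differed by −0.43.

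**Figure D2:**
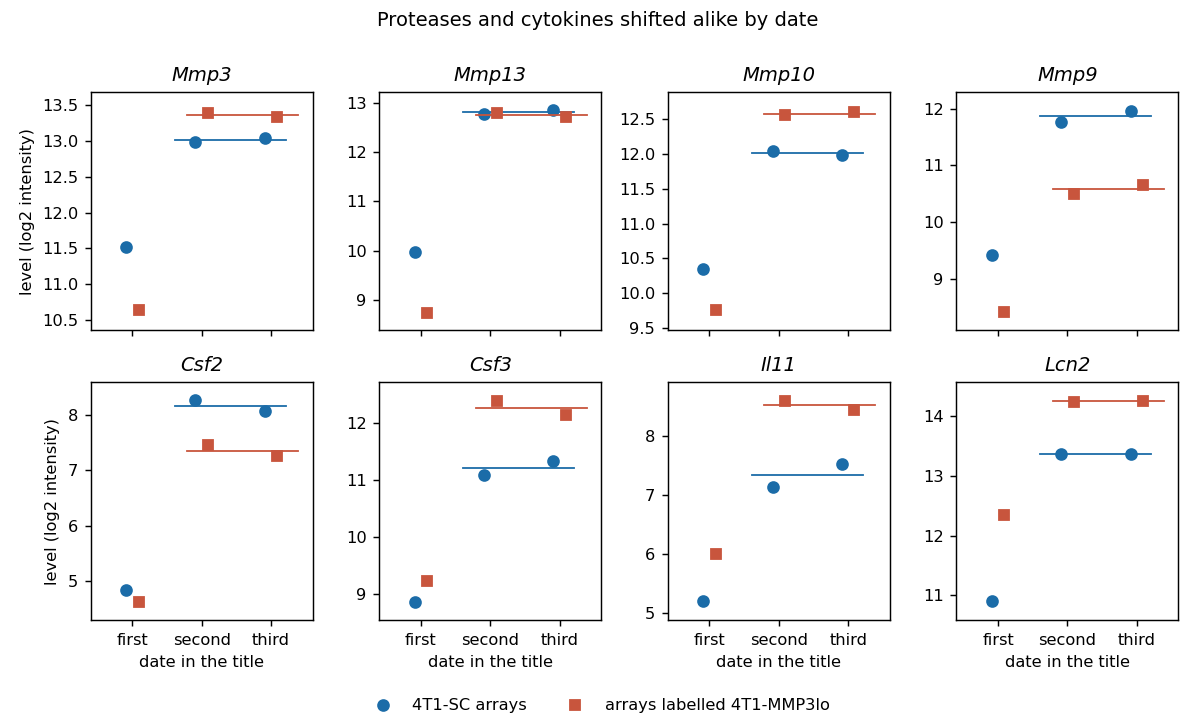
Levels (log2 intensity) of 4 metalloproteinases and 4 secreted factors on the 3 dates, with circles for the 4T1-SC arrays, squares for the arrays labelled 4T1-MMP3lo and a line at the mean of the 2 later arrays of each group. In all 8 genes both first-date arrays lie below all 4 later arrays, as for Mmp13 at 9.97, 12.78 and 12.86 in 4T1-SC.

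Other genes shifted alike and lower were secreted proteins and enzymes of several kinds. Ifi207, a member of the interferon-inducible PYHIN family, read 4.73, 7.63 and 8.65 in 4T1-SC against 5.47, 8.40 and 8.41 in 4T1-MMP3lo (difference −3.17, SE 0.28, adjusted p = 0.00266). Its first-date signal in 4T1-SC was not well above background, and the later arrays were at least 10.3-fold higher. It thus differed in both groups, unlike the interferon genes Usp18, Isg15, Oasl2 and Oas1g described further on. The placental hormone genes Prl2c2, Prl2c3 and Prl2c4 (proliferins) differed by −2.42, −2.72 and −2.89 (adjusted p = 0.00249, 0.000891 and 0.000742). They are near-identical copies, and their probes may not tell them apart. The calcification inhibitor gene Mgp read 5.59, 8.81 and 8.32 against 7.14, 9.80 and 9.67 (difference −2.78, SE 0.20, adjusted p = 0.00143). Inmt, a methyltransferase gene, was not well above background on either first-date array, and the later arrays were at least 4.89-fold higher (adjusted p = 0.00115). The other probe of Inmt differed by −1.01, against −2.42 for the one used. Chil1, which encodes a chitinase-like lectin, read 5.04, 10.49 and 10.32 in 4T1-SC against 4.65, 7.36 and 7.11 in 4T1-MMP3lo. The first-date value of 4T1-MMP3lo was not well above background, and the later arrays of 4T1-MMP3lo were at least 5.73-fold higher. Its difference passed over both groups (−3.97, adjusted p = 0.0165), and its size differed between them (interaction 2.79, adjusted p = 0.0178). S100a8, a subunit of calprotectin, was the reverse case. It read 6.77, 8.48 and 8.34 in 4T1-SC against 6.39, 10.93 and 10.85 in 4T1-MMP3lo, lower on the first date in both (−3.07, adjusted p = 0.0349) and more so in 4T1-MMP3lo (interaction −2.86, adjusted p = 0.0162). S100a8 is also a leukocyte marker. Of the leukocyte markers it was the only one called, and the summed linear level of the 5 measured was 455 and 567 on the first date and 895 to 2501 later. On the later 4T1-MMP3lo arrays most of that sum was S100a8, and its part in the result was not tested.

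Several other enzymes and secreted proteins were shifted alike and lower, and are given for their function after their values were seen. Xdh, xanthine dehydrogenase of purine breakdown, read 5.73, 8.45 and 8.34 in 4T1-SC against 6.99, 8.99 and 8.93 in 4T1-MMP3lo (difference −2.31, SE 0.20, adjusted p = 0.00228). Uox, urate oxidase, which acts on the product of Xdh in mice, read 4.83, 9.16 and 8.87 against 5.30, 6.91 and 6.35 (difference −2.76, SE 0.55, adjusted p = 0.0421). Both enzymes of this route were thus lower on the first date in both groups. Lactotransferrin (Ltf) read 5.35, 9.89 and 10.51 against 4.92, 6.46 and 6.13 (difference −3.11, SE 0.65, adjusted p = 0.0479). The kinase anchor gene Akap12 read 8.51, 10.62 and 10.17 against 6.98, 9.23 and 9.08 (difference −2.03, SE 0.19, adjusted p = 0.00343). Nos2, the inducible nitric oxide synthase, differed by −1.77 (adjusted p = 0.0442), and its first-date 4T1-SC signal was not well above background, with the later arrays of that group at least 3.33-fold higher. The prostaglandin E synthase gene Ptges (−1.43), the secreted protease gene Prss12 (−2.62) and the efflux pump gene Abcc3 (−3.26) were lower as well (adjusted p = 0.0118, 0.00343 and 0.0384).

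Lysosomal and matrix genes were lower by smaller amounts. Of 29 lysosome and autophagy genes measured, 5 were called lower (17.2%, where 2.13% of all genes were) and 0 higher (where 1.12% were). Their median was −0.59, and 23 of the 29 were on the lower side in both groups, against 29.5% of all genes. The 5 were Gpnmb (−1.56, adjusted p = 0.0121, with 4 probes from −1.56 to −0.12), the cathepsins Ctsl (−1.45, adjusted p = 0.0106) and Ctsh (−0.87, adjusted p = 0.0412), the sphingolipid activator precursor Psap (−0.89) and the hexosaminidase subunit Hexa (−0.86). Of 24 integrin and basement membrane genes, 3 were called lower, the laminin chains Lamb3 (10.24, 11.48 and 11.49 in 4T1-SC against 9.56, 10.69 and 10.60 in 4T1-MMP3lo, difference −1.16) and Lamb2 (−1.09) and the collagen receptor subunit Itga1, not well above background on either first-date array, with the later arrays at least 1.54-fold higher. Of 15 mesenchymal genes, 3 were called lower, tenascin C (Tnc, −1.67, with 5 probes from −1.87 to 0.08), Pdgfra (−1.26) and fibronectin (Fn1, −1.03). Pdgfra is also a fibroblast marker. All 3 fibroblast markers measured were on the lower side in both groups, and their summed linear level was 142 on the first date and 356 and 310 later in 4T1-SC, and 306 and then 549 and 574 in 4T1-MMP3lo. The part of these markers in the matrix and mesenchymal values was not tested.

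Some immediate early and feedback genes of growth signalling were called lower, where 2.13% of all genes were. A count of 1 or 2 genes in a list of this size says little beside that share. Of 18 AP-1 and immediate early genes measured, 3 were called lower, Egr3 (−1.57, with 2 probes at −1.57 and 0.09), Egr2 (−1.01, not well above background on the first-date 4T1-SC array) and the phosphatase gene Dusp1 (−0.89). Fos read 6.23, 7.49 and 7.20 in 4T1-SC against 6.27, 6.41 and 6.17 in 4T1-MMP3lo, and Junb read 10.24, 12.47 and 12.10 against 10.32, 10.75 and 10.81. Both were low on all 3 arrays of 4T1-MMP3lo and on the first-date array of 4T1-SC, and neither passed over both groups (adjusted p = 0.221 and 0.0761). Of 13 ERK feedback genes Etv1 was called, at 7.99, 8.90 and 9.12 in 4T1-SC against 8.26, 9.17 and 9.31 in 4T1-MMP3lo (adjusted p = 0.0285), and of 19 TGF-β and BMP response genes Tgfbi (−1.40, with the later 4T1-SC arrays at least 3-fold above a first-date signal near background), Tgfbr3 (−1.31) and Tgfbr1 (−0.81). Their other probes differed by less, at −0.32 for Tgfbi, −0.69 for Tgfbr3 and −0.31 and −0.44 for Tgfbr1. The cell cycle inhibitor gene Cdkn1a was lower as well, at 8.91, 10.38 and 10.72 in 4T1-SC against 9.25, 10.40 and 10.39 in 4T1-MMP3lo (difference −1.39, SE 0.19, adjusted p = 0.0179), the 1 gene called of 18 p53 targets. Of 30 hypoxia and glycolysis genes, Ndrg1 (−1.41) and the collagen prolyl hydroxylase subunit P4ha1 (−1.02) were called, with a list median of −0.50. Casp4 (−2.36, with 3 probes from −2.36 to −0.12) and Casp1 (−1.52), the inflammatory caspases, were the 2 called of 24 apoptosis genes.

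The genes higher on the first date in both groups included enzymes and transporters of amino acid and one-carbon metabolism. Of 26 ATF4 and amino acid response genes measured, 5 were called higher (19.2%, where 1.12% of all genes were) and 0 lower (where 2.13% were). Their median was 0.47. Mthfd2, the mitochondrial folate enzyme, read 11.80, 9.52 and 9.66 in 4T1-SC against 11.86, 10.72 and 10.88 in 4T1-MMP3lo (difference 1.64, SE 0.26, adjusted p = 0.0263). Asparagine synthetase (Asns) read 11.45, 10.16 and 10.03 against 12.07, 11.08 and 11.06 (difference 1.18, SE 0.17, adjusted p = 0.0192). On both genes the 2 first-date arrays exceeded every later array. The serine enzymes Shmt2 (1.16) and Psat1 (1.08) and the ATF4 target Trib3 (0.84) were the others called. Outside that list the glutamine transporter Slc1a5 (1.68), the folate carrier Slc19a1 (1.51), and the mitochondrial enzymes Gpt2 (1.14) and Gcat (1.09) were among the 24 genes shifted alike and higher, chosen here for their function after their values were seen. The list did not move as 1 group, since Ddit4, an inhibitor of mTOR signalling, read 9.39, 11.46 and 11.89 in 4T1-SC against 10.29, 10.37 and 10.27 in 4T1-MMP3lo, a difference of −2.29 in 4T1-SC (adjusted p = 0.00292) and −0.03 in 4T1-MMP3lo (adjusted p = 0.973; interaction 2.26, adjusted p = 0.0401).

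The gene with the largest difference shifted alike and higher was Mfap3l, a membrane protein gene, at 7.68, 5.95 and 5.73 in 4T1-SC against 7.94, 5.91 and 5.86 in 4T1-MMP3lo (difference 1.95, SE 0.17, adjusted p = 0.00228), with 3 probes from 0.37 to 1.95. The VEGF and semaphorin co-receptor Nrp1 read 9.09, 7.49 and 7.63 against 8.64, 6.72 and 6.79 (difference 1.71, SE 0.17, adjusted p = 0.00454), and its 2 probes gave 1.71 and 1.79. The Snail family gene Snai3 (1.58, adjusted p = 0.00778), the vasoconstrictor gene Edn1 (1.39, adjusted p = 0.0121), the Wnt ligand gene Wnt10a (1.20, adjusted p = 0.0214), the basal keratin Krt17, the 1 gene called higher of 5 basal markers measured (1.30, adjusted p = 0.0142), Tmem266 (1.74, adjusted p = 0.0343) and the nuclear pore gene Nup210 (1.60, adjusted p = 0.0349) followed. The Wnt feedback gene Notum, which encodes an extracellular inhibitor of Wnt ligands, differed the other way (−1.69, adjusted p = 0.0412, its other probe at −0.35). The H3 genes H3c7, H3c6 and H3c4 were higher by 1.46, 1.26 and 1.32 (adjusted p = 0.0118, 0.0124 and 0.0121), and these copies resemble each other so closely that the probes may share signal. Histone genes as a list did not share 1 direction, with H3c4 and H2bc21 (1.05, its other probe at −0.09) called higher and the linker histone H1f2 (−1.05) called lower of 20 measured. Over all genes 1.12% were called higher and 2.13% lower, and such small counts of histone or basal genes say little beside these shares. In the 29 G1/S and 26 G2/M genes the medians were 0.21 and 0.40 with 0 called in either, and the largest differences were Cdc6 at 0.79 (adjusted p = 0.0716) and Ccnf at 0.87 (adjusted p = 0.0761). Of the G2/M genes 21 of 26 were higher in both hairpin groups, against 33.5% of all genes.

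The 44 ribosomal protein genes had a median of 0.05 with 0 called, close to the 0.02 of all genes, and the 47 genes of oxidative phosphorylation 0.05 with 1 called, the cytochrome c1 gene Cyc1 (0.90, adjusted p = 0.0415). Of all genes 3.25% were called in either direction. The circadian clock list (median −0.17) had 1 gene called of 14, the repressor gene Ciart (1.11, adjusted p = 0.0349), heat shock 1 of 17, Hspb1 (1.18, adjusted p = 0.0394), and cholesterol synthesis (median 0.15, and 0.40 in 4T1-MMP3lo) 1 of 18, lanosterol synthase (Lss, 0.83, its probes at −0.08 and 0.83). In the unfolded protein response (median −0.25) Dnajb9 (−1.12) and Pdia4 (−0.88) were called lower of 18, and in the NRF2 and glutathione list Mgst1 (−1.55) was called lower of 27. No gene was called in the fatty acid list, where Fabp5 had the largest difference (1.07, adjusted p = 0.0769), in the metallothionein and zinc list, where Slc30a1 had (0.84, adjusted p = 0.0593), or among the ribosomal proteins, where Rplp0 had (0.61, adjusted p = 0.114).

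**Figure D3:**
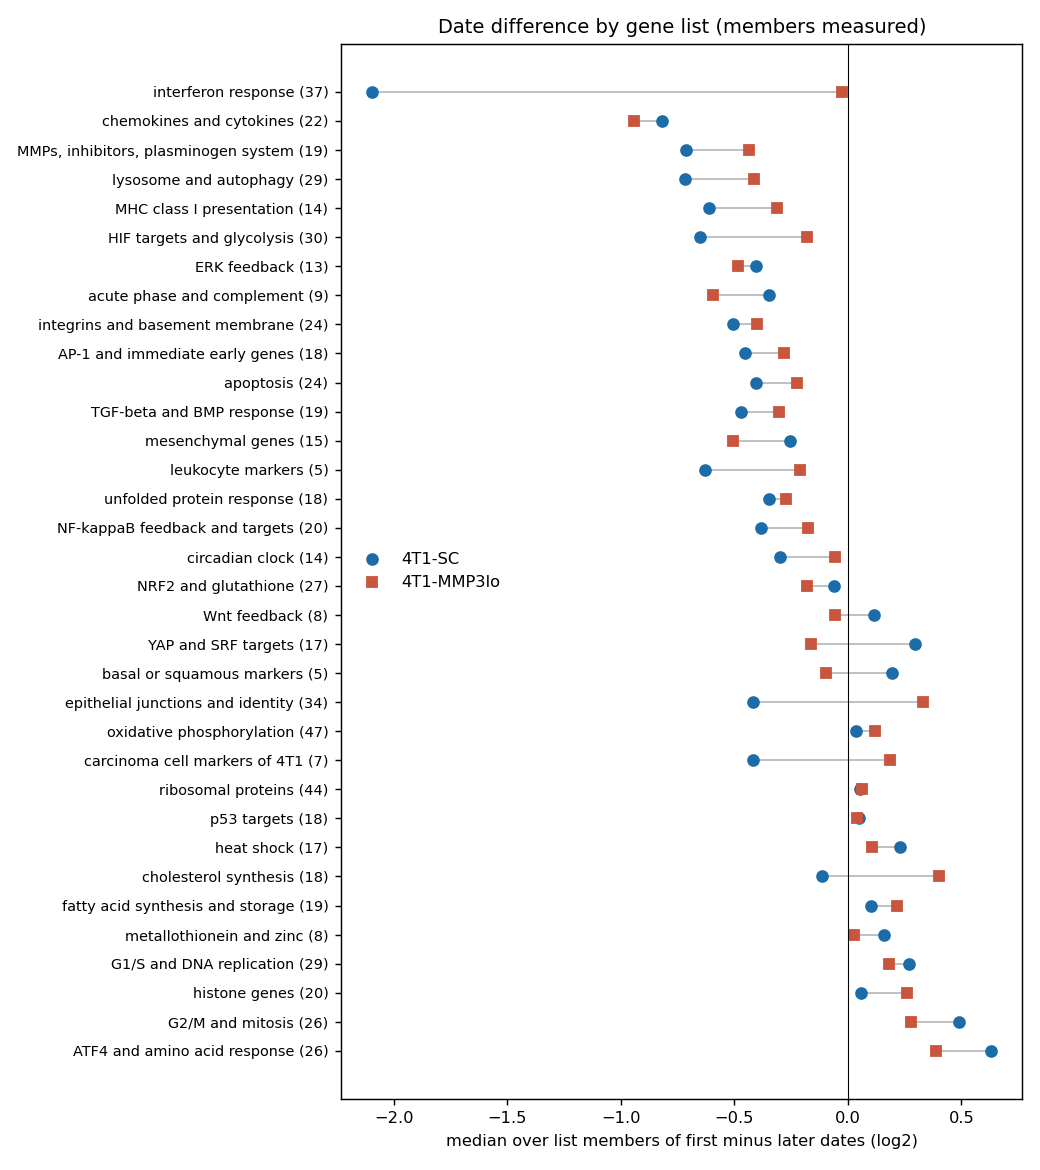
Median first-minus-later difference (log2) over the measured members of each gene list, with circles for 4T1-SC, squares for 4T1-MMP3lo and the number of members in brackets. The interferon list has the widest gap, −2.10 against −0.03, while the chemokine and cytokine list lies at −0.82 and −0.94.

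Interferon-stimulated genes were lower on the first date in 4T1-SC, and for 16 of them the difference was larger there than in 4T1-MMP3lo. Of 46 genes listed for this response 37 were measured. In 4T1-SC 30 of them were called lower, where 7.97% of all genes were, and 0 higher, and the median difference was −2.10. In 4T1-MMP3lo the median was −0.03, and 0 were called where only 0.527% of all genes were called lower, so that this count says little. On the lower side in both groups were 20 of the 37 (54.1%), against 29.5% of all genes. The interaction passed for 16 of the 37 (0.914% of all genes), all with the lower value in 4T1-SC, although 1 of them, Oas2, was not well above background on any 4T1-MMP3lo array. Usp18, the protease that removes ISG15 from proteins, read 5.86, 10.50 and 10.67 in 4T1-SC against 7.16, 7.61 and 7.40 in 4T1-MMP3lo (interaction 4.37, SE 0.30, adjusted p = 0.00825). The later 4T1-SC arrays were thus the high ones of the 6, the first-date 4T1-SC array was the lowest, and the 3 arrays of 4T1-MMP3lo lay between them. Because the first date of 4T1-SC is 1 array, which also had the lowest median intensity, none of these differences could be taken without it, and the part of that array in them was not tested. The ubiquitin-like modifier Isg15 had the same order, at 6.73, 10.07 and 10.20 against 8.01, 7.66 and 7.62 (interaction 3.77, adjusted p = 0.00825). The oligoadenylate synthetase genes Oasl2 (6.47, 10.56 and 10.36 against 8.50, 7.89 and 8.32) and Oas1g (6.62, 10.39 and 10.51 against 7.31, 7.50 and 6.98) did as well, with interactions of 4.37 and 3.90 (adjusted p = 0.00887 and 0.0146). Oas1g has close copies with which its probe may share signal. The immune GTPases Irgm2 and Igtp differed by −3.94 and −3.05 in 4T1-SC and by −0.08 and −0.17 in 4T1-MMP3lo. The regulators of the response were part of it. Irf9, which binds the DNA in the interferon-activated complex, read 6.65, 10.17 and 9.95 in 4T1-SC against 7.48, 7.78 and 7.69 in 4T1-MMP3lo (interaction 3.15, adjusted p = 0.0146). Irf7 was not well above background on the first-date 4T1-SC array, and the later 4T1-SC arrays were at least 6.76-fold higher. Stat2 read 5.13, 7.53 and 7.10 against 5.33, 5.83 and 5.55, with an interaction short of the threshold (adjusted p = 0.088). Some members had small differences, and Irf1, Eif2ak2, Zbp1 and Epsti1 differed by −0.40, −0.45, −0.33 and −0.24 in 4T1-SC. Ifitm1, a membrane restriction factor gene, was the 1 member called over both groups, at 10.65, 12.46 and 12.53 against 11.24, 12.06 and 12.21 (difference −1.37, adjusted p = 0.0327).

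**Figure D4:**
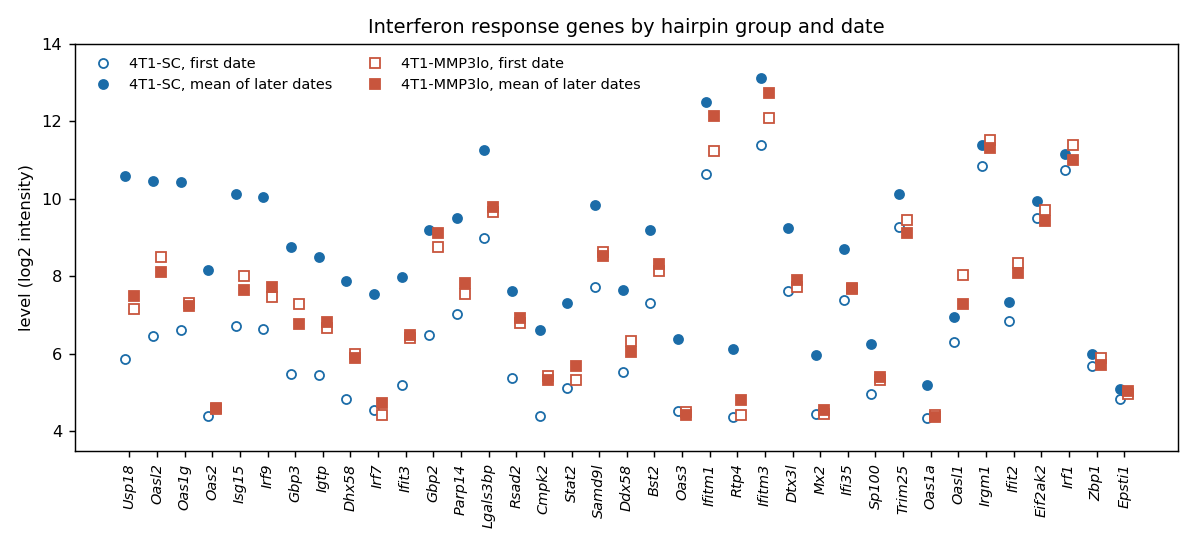
Levels (log2 intensity) of the 37 measured interferon response genes, ordered by their difference in 4T1-SC, with open symbols for the 1 first-date array and filled symbols for the mean of the 2 later arrays, circles for 4T1-SC and squares for 4T1-MMP3lo. On the left the filled circles stand far above the open circles while the 2 squares nearly coincide, as for Usp18, which differed by −4.72 and −0.35.

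The promoters of 4 of these genes are shown for GAAA followed after any 2 bases by GAAA, or on the other strand TTTC after which come any 2 bases and TTTC, the core of the interferon-stimulated response element, to which IRF9 binds. They are the 250 bases before the start site from RefSeq (GRCm38.p6), in the direction of the gene, with matches in capitals and overlapping matches merged, at chr4:156200819-156201068 (minus strand) for Isg15, chr5:120887614-120887863 (minus strand) for Oas1g, chr19:34583279-34583528 (plus strand) for Ifit3 and chr11:58214727-58214976 (plus strand) for Irgm2.
Isg15: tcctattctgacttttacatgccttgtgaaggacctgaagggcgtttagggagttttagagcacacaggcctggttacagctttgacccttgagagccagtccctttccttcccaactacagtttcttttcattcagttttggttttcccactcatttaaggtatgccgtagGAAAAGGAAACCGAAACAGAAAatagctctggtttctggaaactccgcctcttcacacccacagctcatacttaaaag
Oas1g: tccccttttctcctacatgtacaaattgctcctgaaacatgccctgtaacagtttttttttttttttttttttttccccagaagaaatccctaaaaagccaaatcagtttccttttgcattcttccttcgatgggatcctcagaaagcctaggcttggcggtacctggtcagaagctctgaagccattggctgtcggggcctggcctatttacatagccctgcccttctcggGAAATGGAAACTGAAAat
Ifit3: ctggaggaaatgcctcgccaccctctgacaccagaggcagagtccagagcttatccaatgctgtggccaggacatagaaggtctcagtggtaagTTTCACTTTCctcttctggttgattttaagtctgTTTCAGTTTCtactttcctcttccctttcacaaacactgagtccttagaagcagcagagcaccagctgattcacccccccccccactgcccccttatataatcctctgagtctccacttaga
Irgm2: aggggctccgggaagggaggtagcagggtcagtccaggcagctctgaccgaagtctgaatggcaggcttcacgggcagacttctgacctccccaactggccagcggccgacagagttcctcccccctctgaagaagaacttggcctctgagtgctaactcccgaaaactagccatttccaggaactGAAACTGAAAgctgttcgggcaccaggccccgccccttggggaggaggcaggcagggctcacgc
Isg15 held 3 overlapping matches, Oas1g 2 overlapping ones, Ifit3 2 apart and Irgm2 1. The windows of Oasl2 and Irf7 held 0 matches. Of 37 windows listed for 32 of the 44 genes lower in 4T1-SC only, 9 held a match (24.3%), against 3 of 75 for the genes shifted alike and lower (4%), 2.73% of the windows of all genes tested and 2.98% of all windows. The 44 include 7 genes not well above background on any 4T1-MMP3lo array, which entered through 4T1-SC alone, and the share was not taken without them. Ifit3 itself read 5.19, 7.88 and 8.08 in 4T1-SC against 6.40, 6.54 and 6.44 in 4T1-MMP3lo.

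Antigen presentation genes were on the lower side in both groups for 10 of 14 measured (71.4%, against 29.5% of all genes), with medians of −0.61 in 4T1-SC and −0.31 in 4T1-MMP3lo. In 4T1-SC 6 of the 14 were called lower, where 7.97% of all genes were, among them the heavy chain H2-K1 (9.85, 11.52 and 11.57) and the peptide transporter Tap1 (5.57, 7.39 and 7.02), while in 4T1-MMP3lo 0 were called, where 0.527% of all genes were, and the interaction passed for 0. Over both groups H2-T23 (−1.49, adjusted p = 0.0494) and H2-D1 (−1.07, adjusted p = 0.0412) were called lower, and class I heavy chain genes resemble each other enough for probes to share signal. Another probe of H2-T23 differed by −3.53 in 4T1-SC and 0.08 in 4T1-MMP3lo. The probes of H2-D1 ranged from −1.42 to −1.07 over both groups.

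Of the 44 genes lower in 4T1-SC only, 15 were on the interferon list, which holds 37 of the 10066 genes tested. The 15 include Oas2, which was not well above background on any 4T1-MMP3lo array and entered through 4T1-SC alone. Gabrp, a GABA receptor subunit gene, read 4.47, 8.01 and 7.77 in 4T1-SC against 4.86, 4.42 and 4.37 in 4T1-MMP3lo (interaction 3.88, adjusted p = 0.00825). It was not well above background on the first-date 4T1-SC array, and the later arrays of that group were at least 8.65-fold higher, while the later 4T1-MMP3lo arrays were not well above background. The basal keratin Krt15 was at background on the first-date 4T1-SC array and the later 4T1-SC arrays were at least 6.78-fold higher, while it was not well above background on any 4T1-MMP3lo array, so that its date difference was not measured there. The vitamin D receptor gene Vdr, chosen for its function after its values were seen, read 6.26, 8.66 and 8.45 in 4T1-SC against 5.48, 5.33 and 5.55 in 4T1-MMP3lo (interaction 2.34, adjusted p = 0.0311). A further 8 genes that passed the interaction fell in none of these classes and had the same sign in both groups, Il1b and Gadd45a among them. The cytokine Il1b was not well above background on either first-date array, and the later arrays were at least 6.53-fold higher in 4T1-SC and at least 1.28-fold higher in 4T1-MMP3lo. The growth arrest gene Gadd45a read 8.40, 11.15 and 11.03 against 9.80, 10.38 and 10.45 (interaction 2.07, adjusted p = 0.0312).

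The 11 genes higher on the first date in 4T1-SC only were of mixed function. The actin-binding gene Aif1l read 10.17, 7.46 and 7.58 in 4T1-SC against 10.04, 9.91 and 9.89 in 4T1-MMP3lo (interaction −2.51, adjusted p = 0.0193). The sodium pump subunit Atp1b1 read 8.72, 6.33 and 6.57 against 8.60, 8.56 and 8.50 (interaction −2.20, adjusted p = 0.0312). In both genes the later 4T1-SC arrays were the low ones, and the first-date 4T1-SC array lay near the level of all 3 arrays of the other group. S100a7a (−2.65), the adaptor gene Sorbs2 (−2.14), Nme7 (−2.07) and the TEAD cofactor gene Vgll3 (−2.07) had interactions of the same sign (adjusted p = 0.0168, 0.0312, 0.0311 and 0.0409). Vgll3 was not well above background on the third-date 4T1-SC array. The 7 probes of Nme7 ranged from −0.64 to 1.53 over both groups. Sorbs2 differed by 1.93 in 4T1-SC and −0.20 in 4T1-MMP3lo, but its other probe by only 0.33 and 0.04.

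By the rule, 2 genes were shifted on the arrays labelled 4T1-MMP3lo only, both lower on the first date. The acute phase gene Saa3 read 5.05, 5.12 and 4.84 in 4T1-SC against 6.46, 9.57 and 9.55 in 4T1-MMP3lo, a difference of −3.10 against 0.07 (interaction −3.17, adjusted p = 0.0146). Its 4T1-SC values lay close to the lowest signal among detected probes on those arrays (4.78, 4.72 and 4.74). A lower first-date level of Saa3 could thus hardly be seen in 4T1-SC. The organic anion transporter Slco4a1 read 8.74, 8.67 and 8.68 against 8.66, 10.54 and 10.69 (interaction −2.02, adjusted p = 0.0312). In both genes the 2 later 4T1-MMP3lo arrays were the high ones of the 6.

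Of the 19 genes that moved opposite ways, 14 were lower in 4T1-SC and higher in 4T1-MMP3lo on the first date, and 5 the reverse. The 5 were the monocyte chemokines Ccl2 and Ccl7, the leukocyte adhesion receptor Icam1, the matrix protein gene Ccn1 and the creatine kinase gene Ckb. Ccl2 read 6.12, 5.28 and 4.57 in 4T1-SC against 5.05, 6.79 and 6.67 in 4T1-MMP3lo (interaction −2.87, adjusted p = 0.0401). It was not well above background on the third-date 4T1-SC array. Icam1 read 6.92, 6.20 and 5.97 against 6.79, 7.96 and 7.88 (interaction −1.96, adjusted p = 0.0404). The first-date values of Icam1 in both groups lay between the later values of 4T1-SC and those of 4T1-MMP3lo. Ccl7 differed by −0.96 in 4T1-MMP3lo, and its later 4T1-SC arrays were not well above background. Ccn1 differed by 1.52 and −0.95 (adjusted p = 0.0312, the 1 gene that passed of 17 YAP and SRF targets, with 3 probes from −0.26 to 0.29 over both groups) and Ckb by 1.72 and −0.53 (adjusted p = 0.0311). In the other direction the guanylate-binding protein gene Gbp3 read 5.48, 9.12 and 8.40 against 7.28, 6.80 and 6.75 (interaction 3.79, adjusted p = 0.0204), the peroxisomal oxidase gene Acox2 6.53, 8.45 and 8.25 against 7.51, 6.26 and 6.42 (2.99, adjusted p = 0.0162) and the actin-bundling gene Espn differed by −2.15 and 0.72 (interaction 2.88, adjusted p = 0.0162). The other probe of Gbp3 differed by −3.47 in 4T1-SC and only 0.19 in 4T1-MMP3lo. That of Espn was on the lower side in both groups, at −1.75 and −0.12. Plekhs1 differed by −1.52 in 4T1-SC, and its first-date level in 4T1-MMP3lo was at least 2.33-fold above the later arrays of that group, which were not well above background (interaction adjusted p = 0.0162). Its other probe differed by −0.58 in 4T1-SC and 0.20 in 4T1-MMP3lo. The hypoxia target Ankrd37 differed by −1.93 and 0.57 (adjusted p = 0.0312).

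**Figure D5:**
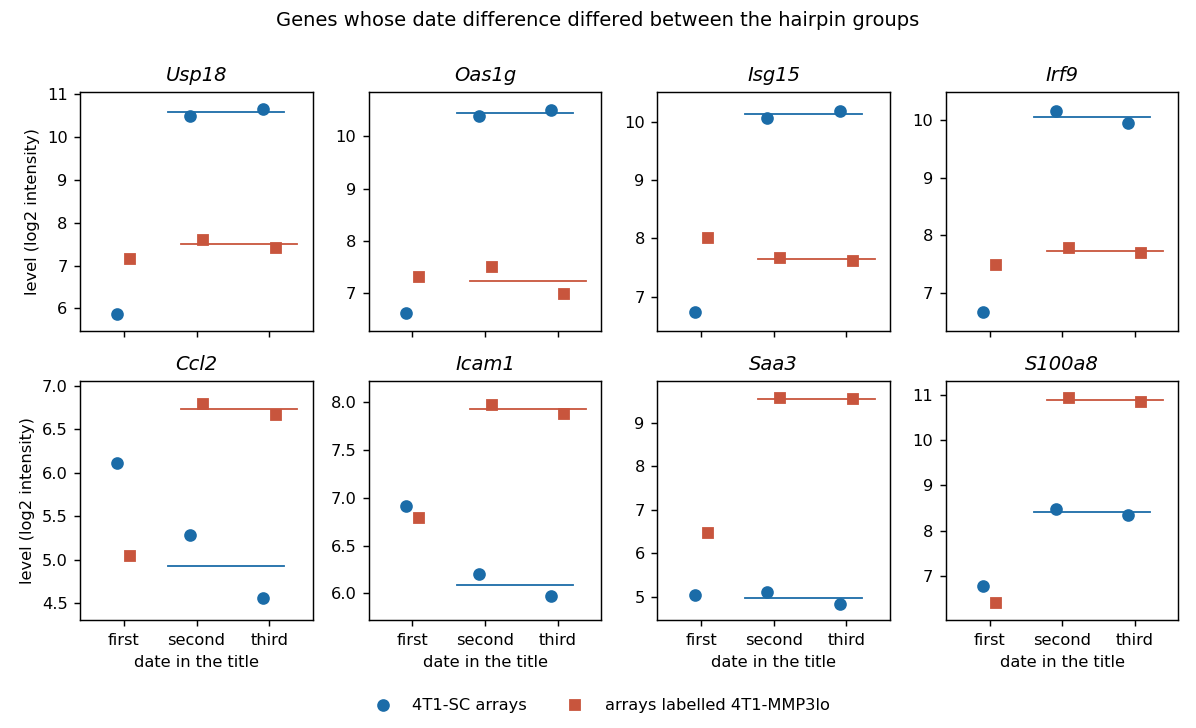
Levels (log2 intensity) of 8 genes whose date difference passed the interaction test, with circles for the 4T1-SC arrays, squares for the arrays labelled 4T1-MMP3lo and a line at the mean of the 2 later arrays of each group. In the upper row only the first-date 4T1-SC array departs from its group's later mean by more than 1, as for Isg15 at 6.73, 10.07 and 10.20, and in the lower row Ccl2 and Icam1 go opposite ways, Saa3 departs in 4T1-MMP3lo only and S100a8 departs further there than in 4T1-SC.

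The 34 epithelial genes measured had a median of −0.42 in 4T1-SC and 0.33 in 4T1-MMP3lo, with 0 called over both groups and 0 in the interaction. Rab25, a vesicle traffic GTPase gene of epithelia, had the largest difference over both groups, at 10.74, 10.52 and 11.11 in 4T1-SC against 10.10, 8.26 and 8.66 in 4T1-MMP3lo (0.78, adjusted p = 0.238). The splicing regulator Esrp1 read 11.53, 11.58 and 11.83 against 10.53, 9.29 and 9.26 (interaction adjusted p = 0.0972), and Krt19 7.76, 9.04 and 9.18 against 8.07, 7.89 and 8.05 (interaction adjusted p = 0.0907). Of the basal or squamous markers 5 of 14 were measured. Krt14 read 10.27, 9.88 and 10.26 in 4T1-SC against 10.38, 8.20 and 8.52 in 4T1-MMP3lo (difference over both groups 1.11, adjusted p = 0.128). The endothelial markers had 3 of 10 measured and 0 called, with Kdr at −0.29 (adjusted p = 0.301).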

How the data were processed

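RNA of 4T1 cells, 2 samples per date and 6 in all, had been biotin-labelled and hybridised to Illumina MouseWG-6 bead arrays. The authors deposited scanner intensity per probe without background correction or normalization, beside a detection p-value for each probe and array, which compares the probe with negative controls. A further deposited table holds the authors' log2 intensities, in which the 6 columns have nearly the same distribution (quantile normalization), with no background correction visible. It served as an alternative. Scanner and software are not given in the sources used here.

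Background was corrected with neqc of limma (version 3.58.1, R 4.3.3; offset 16), using the detection p-values to find the background level, followed by quantile normalization and log2. Of 45281 probes 34885 had 1 gene symbol in the platform annotation, 18 several and 10378 none listed. A probe was kept if its detection p was under 0.05 on 2 or more of the 6 arrays, and the brightest one stood for its gene, which left 10066 genes (6143 with 1 probe, 3923 with more). First-date arrays were compared with later ones by lmFit and eBayes, two-sided, with hairpin group as covariate. A model with 1 mean per hairpin group and date class gave the difference within each group and the interaction. Calls were made at a Benjamini-Hochberg adjusted p of 0.05 over all genes. A fold written as at least N sets the group mean against the lowest signal of detected probes where the other side was not detected. The steps were tested on simulated data. Figures were drawn with matplotlib 3.10.9 (Python 3.11.15, pandas 2.3.3). The number of arrays limits the precision.

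The members and gene lists were chosen with earlier results of these data known. Genes were named by rule. The rule took Mmp3, the 10 genes shifted alike in each direction with the largest difference in the group where it was smaller, up to 6 genes per direction shifted in 1 group only and 4 opposite genes with the largest interactions, and in each list up to 3 members called over both groups and up to 2 called in the interaction, or else the member with the largest difference. Genes named outside it are marked as chosen after their values were seen, or stand for a family or a list whose count they illustrate. Of 100 genes the rule named, 46 had more than 1 probe. In 6 the probes differed in the sign of the difference over both groups (Egr3, Ccn1, Lss, H2bc21, Tnc and Nme7). Signs within each group were not tallied. The alternatives were no background correction, an offset of 50, median shift in place of quantile normalization, other detection filters, the mean of all probes, other date terms, the t-test of the study's methods and leaving out each array.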

Additional observations from a re-analysis of the deposited data

Results flagged for a closer look

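The 28 genes below are named genes whose first-minus-later difference differed between the hairpin groups by the interaction test (limma, adjusted p under 0.05). They are not all the named genes that passed, as Chil1 (2.79), Irf9 and Vdr did too. Each value is the difference in 4T1-MMP3lo minus that in 4T1-SC on the log2 scale, and each first-date side is 1 array. The interaction was positive, with the lower first-date side in 4T1-SC, for Usp18 (4.37), Oasl2 (4.37), Oas1g (3.90), Gabrp (3.88), Irgm2 (3.86), Gbp3 (3.79), Isg15 (3.77), Acox2 (2.99), Krt15 (2.94), Plekhs1 (2.91), Espn (2.88), Ankrd37 (2.50), Il1b (2.38), Ddit4 (2.26) and Gadd45a (2.07). It was negative for Saa3 (−3.17), Ccl2 (−2.87), S100a8 (−2.86), S100a7a (−2.65), Aif1l (−2.51), Ccn1 (−2.47), Atp1b1 (−2.20), Sorbs2 (−2.14), Nme7 (−2.07), Vgll3 (−2.07), Slco4a1 (−2.02), Icam1 (−1.96) and Serpinb2 (−1.90). Of these, Saa3, S100a8 and Slco4a1 had the lower first-date side in 4T1-MMP3lo with the larger difference there, and in the others 4T1-SC had the larger difference or both groups went opposite ways. Some of these values rest on signals not well above background. Krt15 and Serpinb2 were so on all 3 arrays of 4T1-MMP3lo, so that theirs are not measured differences between the groups. Plekhs1 and Gabrp were so on both later arrays of 4T1-MMP3lo, Krt15 and Gabrp on the first-date array of 4T1-SC and Il1b on both first-date arrays. Ccl2 and Vgll3 were so on the third-date array of 4T1-SC. Saa3 was detected on all 3 arrays of 4T1-SC, but close to the lowest signal among detected probes. In 4T1-SC the later arrays were at least 8.65-fold above the first for Gabrp, 6.78-fold for Krt15 and 6.53-fold for Il1b, and in 4T1-MMP3lo the first was at least 2.33-fold above the later ones for Plekhs1.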

How the results depend on the processing

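The directions of the 327 genes called over both groups and of the 92 called in the interaction held, where the gene was present, under the 8 processing alternatives (background, normalization, filter and probe choice) and without each array (for the interaction, each later array), but the counts did not. Without 1 first-date array the difference over both groups is that of the other group alone. The 327 had the same sign in both groups, so their directions had to hold there. Directions were not compared under the other date terms or the t-test. Over both groups the count of 327 became 92 without the detection filter, 47 with date at 3 levels, 14 without the hairpin covariate, and 19 or 17 with only the second or only the third date as the later side. It lay between 19 and 105 without 1 later-date array. The t-test of the study's methods gave 1591 genes unadjusted and 2 after Benjamini-Hochberg adjustment. The interaction count of 92 became 24 without background correction and on the authors' table, 49 with an offset of 50, 244 with median shift, 52 with detection on all 6 arrays, and 547 at over 2-fold and an unadjusted p under 0.01. Without the detection filter limma called 0, with 2400 at an unadjusted p under 0.05. It lay between 33 and 1133 without 1 array. Within 4T1-SC the count of 1448 lay between 682 and 3455 without 1 array. Within 4T1-MMP3lo the count of 59 became 110 with median shift, 20 without the filter, 39 with detection on all 6 arrays, and between 16 and 357 without 1 array. The 107 genes shifted alike became 39 without background correction, 38 on the authors' table, 62 with an offset of 50, 55 without the filter and 327 at 1.5-fold, and 19 to 90 without 1 array. The 57 genes shifted in 1 group only became 17 without background correction and on the authors' table, 35, 149, 0 and 31 with the offset of 50, median shift, no filter and detection on all 6 arrays, and 20 to 656 without 1 array. The cause was not tested.

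Some uncalled differences over both groups changed sign with the array left out. Without the first-date array of 1 group, the value is the difference within the other group. Icam1 ranged from −1.13 without the first-date 4T1-SC array to 0.83 without that of 4T1-MMP3lo, and was 0.01 without the second-date 4T1-MMP3lo array. In the same order of both arrays Ccn1 went from −0.95 to 1.52, Ankrd37 from 0.57 to −1.93, Rab25 from 1.64 to −0.075 and Krt19 from 0.095 to −1.34. No paired analysis was possible because the label that pairs the arrays is the date itself. With 1 first-date array per group, no interaction could be fitted without either of them. Probes near background limit the fold of dim genes.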
